A study of Zea mays with 57 samples.

Results

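The 6 gene models followed here are models of the maize annotation described as 3 nitrite reductase models (Zm00001d018161, Zm00001d052164 and Zm00001d052165) and 3 nitrate reductase models (Zm00001d018206, Zm00001d049995 and Zm00001d031769). The 6 models were chosen by identifier from the 46335 genes counted, and a model was to be reported where its mean reached 1 CPM (counts per 1000000, after scaling) in any group. Of the 6, 5 reached that level, and 4 passed the filter on low counts and were among the 18412 genes tested. The exception to the level was Zm00001d031769, whose highest group mean was 0.521 CPM.

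Plants that take up nitrate reduce it in 2 steps before nitrogen enters amino acids. Nitrate reductase, a cytosolic enzyme that uses NADH or NADPH and a molybdenum cofactor, turns nitrate into nitrite. Nitrite reductase, a plastid enzyme that uses ferredoxin, turns the nitrite into ammonium, which glutamine synthetase then takes up. Nitrite is toxic when it accumulates, and transcripts of both enzymes are textbook examples of genes induced by nitrate.

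The samples were shoots of B73, an inbred maize line, taken from 10-day-old seedlings that had been without nitrogen for 2 days, with the endosperm removed. Each library was a pool of 3 seedlings. At 2 h after lights on, seedlings went to a medium holding KNO3 and NH4NO3 at 20 mM each, with 15N as 10% of its nitrogen, or to KCl at 20 mM. These are called nitrogen and KCl below. Harvests were at the start, every 5 min up to 20 min, every 15 min from 30 to 60 min, and at 90 and 120 min after transfer, which gave 57 libraries in 19 groups of 3. The nitrogen medium supplied nitrate and ammonium together and lacked the chloride of the KCl medium, so effects of nitrate, ammonium and the other salts cannot be told apart. The start libraries had been transferred to no medium, so transfer itself and time cannot be told apart in a comparison with the start.

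Library totals ran from 1057488 to 5684785 counts, apart from replicate 3 of nitrogen at 120 min, which held 8560 counts and is left out of every mean below. That library held 1 count of Zm00001d018161 and 0 of the other 5 models. KCl libraries held a median of 2006288 counts and the other 26 nitrogen libraries a median of 2809128. A second library stood apart in these genes: replicate 3 of KCl at 120 min exceeded the other 26 KCl libraries for Zm00001d018161, Zm00001d052165 and Zm00001d018206. Where it moves a value by much, the value without it is given as well. In whole shoots, fewer cells of a type and less RNA per cell cannot be told apart. The count table pairs no identifier with a gene name, so neither shoot marker genes nor lists of other nitrate assimilation genes could be applied.

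On the AGPv4 assembly, Zm00001d018161 lies on the minus strand of chromosome 5 from 215727084 to 215730071, with 2289 exon bases in 4 blocks. Zm00001d018206 lies on the same strand and chromosome from 216589277 to 216592402, with 1996 exon bases in 5 blocks. Zm00001d049995 is on the plus strand of chromosome 4 from 58642687 to 58647338, with 2136 exon bases. Zm00001d031769 is on the minus strand of chromosome 1 from 201195222 to 201199817, with 2181 exon bases. None of these 4 models overlaps another gene of the count table.

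The remaining nitrite reductase models overlap each other. Zm00001d052164 runs on the plus strand of chromosome 4 from 181552538 to 181556093, and Zm00001d052165 runs on the same strand from 181552730 to 181556339. They share 2012 exon bases, which is 77.9% of the exon bases of Zm00001d052164 and 89.1% of those of Zm00001d052165. Only 246 bases, from 181556094 to 181556339 at the 3′ end, belong to Zm00001d052165 alone. Per the file header, reads that fall on more than 1 gene were not assigned to either, so the counts of both models leave out reads from the shared exons. Sequencing started from the 3′ ends of transcripts, and the count of Zm00001d052165 over all libraries was 1123 against 74 for Zm00001d052164. The level of neither model can therefore be read as the output of the locus.

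**Figure D1:**
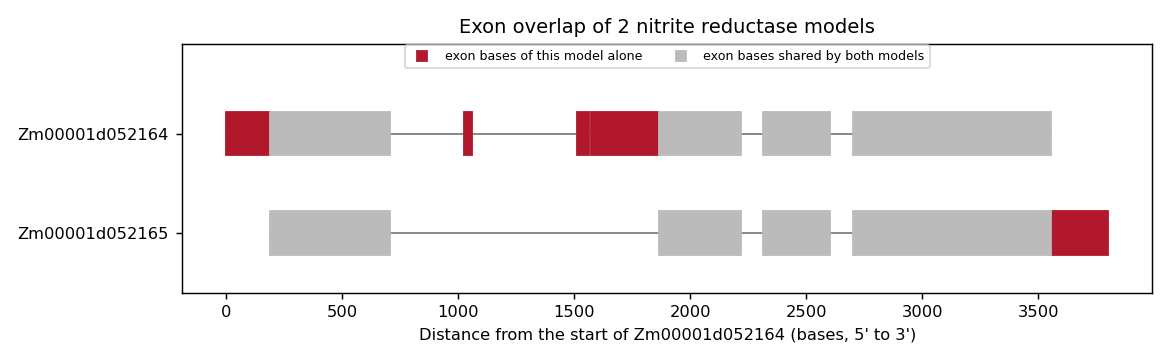
Exon blocks of Zm00001d052164 and Zm00001d052165, drawn to scale as distance in bases from the start of Zm00001d052164. Red marks exon bases of one model alone and grey marks the 2012 exon bases that both models hold; the 246 bases of Zm00001d052165 alone lie at its 3′ end.

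Both enzyme classes were higher in nitrogen than in KCl in the later part of the course. The nitrite reductase model Zm00001d018161 differed from 15 min on, its class mate Zm00001d052165 from 30 min on, the nitrate reductase model Zm00001d018206 at 60 and 90 min, and Zm00001d049995 at 90 and 120 min. Zm00001d049995 also differed in the opposite direction at 20 min. By time, 1 of the 4 tested models was called at 15 min, when 7.67% of all tested genes were, and 2 at 20 min, when 26.7% were. At 30 min 2 were called, against 14.3% of all genes, and at 45 min 2, against 23.7%. At 60 min 3 were called, against 20.6%, at 90 min all 4, against 6.61%, and at 120 min 3, against 1.07%. At 5 and 10 min the adjusted p-values of the 4 models lay between 0.0872 and 0.89. Of the 18412 genes tested, 3319 were called at 5 min and 51 at 10 min. A model can pass the filter through its nitrogen libraries alone, so these counts are a description and not evidence about the set. Calls are from edgeR's quasi-likelihood test, with p-values adjusted by Benjamini-Hochberg over all 18412 genes and a threshold of 0.05.

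**Figure D2:**
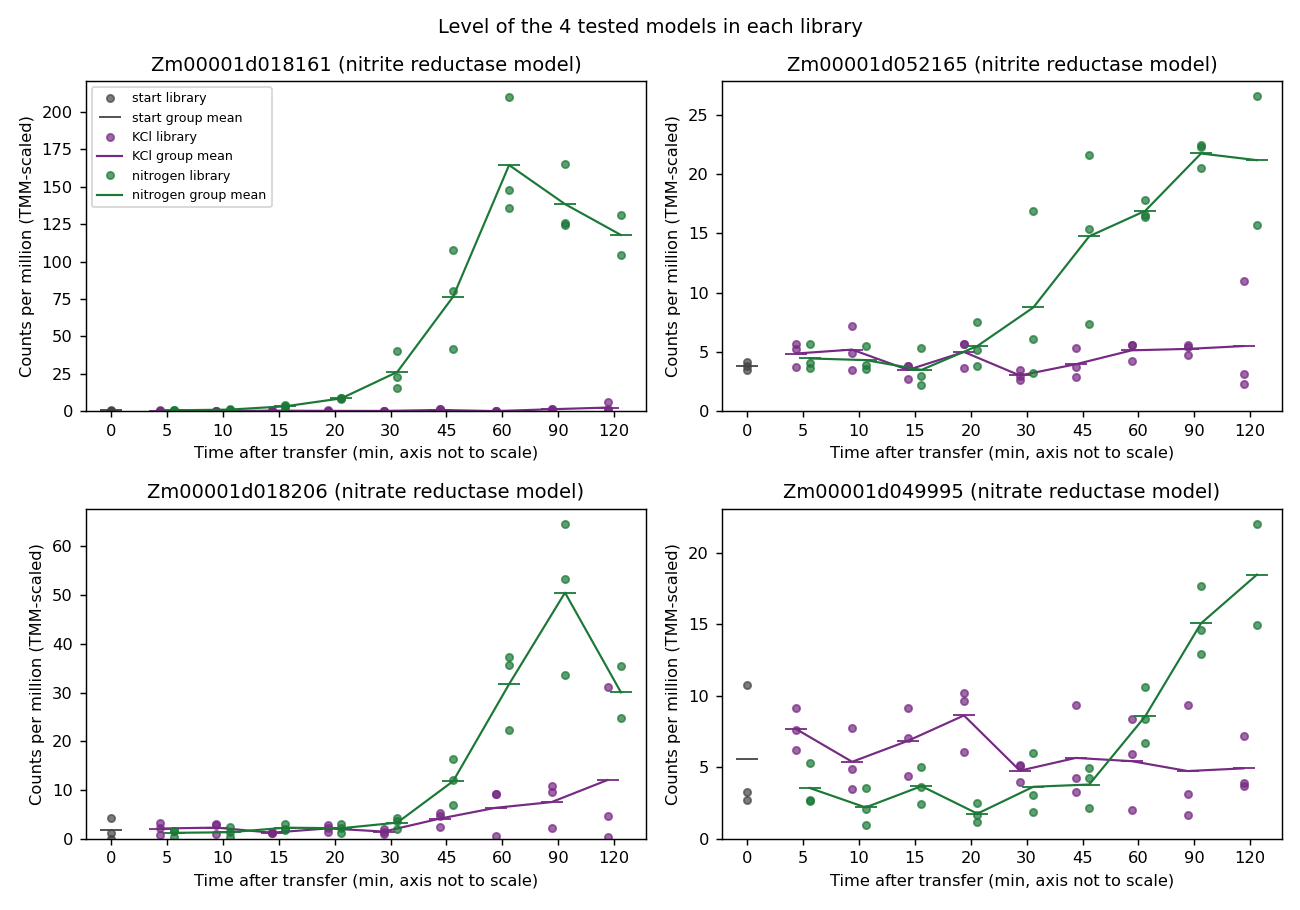
Level in CPM against time after transfer for the 4 tested models, with a point for each library, a dash for each group mean and lines joining the means of one medium (KCl purple, nitrogen green, start grey). Zm00001d018161 climbs from 0.523 CPM at 5 min to 164.5 CPM at 60 min in nitrogen, and a single KCl library at 120 min stands above its group in each panel.

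Zm00001d018161, a nitrite reductase model, was close to absent without nitrogen and became the most abundant of the 6 in counts. The start libraries held 0.777, 0.297 and 0.348 CPM. Of the 27 KCl libraries 15 held 0 counts, the median was 0.0 CPM and the highest, replicate 3 at 120 min, held 5.89 CPM. Nitrogen libraries at 5 min held 0.559, 0.331 and 0.678 CPM, which overlaps the KCl libraries at that time. At each of the 8 later times every nitrogen library lay above every KCl library. How many of all genes separate in this way was not counted, so such statements here and below are a description.

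The group mean of Zm00001d018161 in nitrogen was higher at each time than at the one before up to 60 min, though the libraries at 5 and 10 min overlap and the steps up to 30 min did not pass in the main fit (edgeR adjusted p from 0.25 to 1). Without the filter on low counts, the steps from 15 to 20 min (adjusted p = 0.0258) and from 20 to 30 min (2.84e-07) passed in edgeR. The 3 libraries held 0.647, 1.497 and 0.812 CPM at 10 min, 1.82, 3.54 and 4.28 CPM at 15 min, and 8.06, 8.74 and 8.71 CPM at 20 min. They held 22.97, 15.6 and 39.9 CPM at 30 min, 80.5, 107.4 and 41.8 CPM at 45 min, and 210.2, 147.6 and 135.7 CPM at 60 min. The level was highest at 60 min, with a mean of 164.5 CPM ± 40.01 (SD, n = 3). It was 125.7, 165.1 and 124.4 CPM at 90 min and 131.4 and 104.1 CPM in the 2 usable libraries at 120 min, so 90 min overlaps 60 min and 120 min overlaps 90 min.

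Because KCl libraries held so few counts, the difference is best given as a ratio of pooled counts, whose exact interval at the 95% level covers counting error only. At 15 min nitrogen held 33 counts and KCl 2, a ratio of 11.9 (3.05 to 102.5). At 20 min the ratio was 80.7 (13.9 to 3241), and at 30 min 169.0 (29.9 to 6714), each against a single KCl count. At 60 min the KCl group held 0 counts against 1282 in nitrogen, which is 230.2 times a floor of 3 counts over the KCl group, and the exact interval gives 186.9 as the lower limit of the ratio. The ratio was 107.4 (41.7 to 395.5) at 45 min and 112.5 (54.4 to 280.4) at 90 min. At 10 min the KCl group also held 0 counts against 10 in nitrogen, and the lower limit of the ratio was 0.976, so no difference was detectable there at this depth.

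The edgeR adjusted p for Zm00001d018161 was 0.0332 at 15 min, 1.31e-05 at 20 min and 3.13e-08 at 30 min, and at most 8.18e-13 at 45 and 60 min. The call at 15 min was lost without KCl 15 min replicate 2 (adjusted p = 0.199) or replicate 3 (0.102), and without nitrogen 15 min replicate 2 (0.0581) or replicate 3 (0.147). At 120 min the ratio was 39.98 (26.9 to 62.1). There 22 of the 25 KCl counts came from replicate 3, and the fitted log2 difference of 5.28 (SE 0.382) became 7.34 (SE 0.542) without it.

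Against the start, Zm00001d018161 rose in nitrogen from 20 min on, with log2 changes of 4.07 (SE 0.748, edgeR adjusted p = 0.00263) at 20 min and 8.35 (SE 0.474, adjusted p = 1.65e-18) at 60 min. Against the start 0.136% of all genes were called at 20 min, 0.228% at 30 min and 4.71% at 60 min. Between neighbouring times in nitrogen, the step from 30 to 45 min was called, a log2 change of 1.54 (SE 0.281, edgeR adjusted p = 0.0292), when 0.00543% of all genes were. That call was lost without nitrogen 30 min replicate 1 (adjusted p = 0.29) or replicate 2 (1), and without nitrogen 45 min replicate 1 (0.258) or replicate 2 (0.679). It was also lost in DESeq2 (adjusted p = 0.317), in limma (1), in the authors' normalized table (0.998) and with the replicate number as a block (0.0605), at log2 changes from 1.51 to 1.55. Averaged over 45 to 120 min, the nitrogen level was 5.14 log2 units (SE 0.175) above that over 5 to 30 min (edgeR adjusted p = 3.25e-28), a contrast that called 6.4% of all genes.

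Zm00001d052165, counted through its own 3′ bases, had a measurable level without nitrogen and passed against the start from 45 min on. The start libraries held 3.50, 4.16 and 3.83 CPM. The 27 KCl libraries ran from 2.32 to 10.98 CPM with a median of 4.22 CPM, and the highest was again replicate 3 at 120 min. In nitrogen the group means stayed between 3.48 and 5.49 CPM from 5 to 20 min, where they overlapped KCl at every time.

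Later nitrogen libraries of Zm00001d052165 held more. They held 6.12, 3.22 and 16.9 CPM at 30 min, 15.3, 21.6 and 7.35 CPM at 45 min, and 16.4, 17.8 and 16.5 CPM at 60 min. They held 20.5, 22.3 and 22.4 CPM at 90 min and 26.6 and 15.7 CPM at 120 min. At 30 min 1 of the 3 nitrogen libraries carried most of the difference, and the change against the start did not pass (log2 1.18, edgeR adjusted p = 0.389). From 45 to 120 min every nitrogen library lay above every KCl library.

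The nitrogen minus KCl difference of Zm00001d052165 was 1.55 (log2, SE 0.482, edgeR adjusted p = 0.0242) at 30 min. That call was lost without nitrogen replicate 3 of 30 min (0.63, adjusted p = 0.561), and without KCl replicate 1 (adjusted p = 0.128), replicate 2 (0.0531) or replicate 3 (0.0503). It was 1.901 (SE 0.426, adjusted p = 0.00101) at 45 min, 1.70 (SE 0.425, adjusted p = 0.00343) at 60 min and 2.04 (SE 0.383, adjusted p = 6.43e-04) at 90 min, all from edgeR. At 120 min it was 1.81 (SE 0.365, edgeR adjusted p = 0.00333). It was 2.97 without KCl replicate 3 and 1.32 (adjusted p = 0.265) without nitrogen replicate 1, which left 1 deep nitrogen library. Averaged over the 9 times the difference was 0.97 (SE 0.148, edgeR adjusted p = 2.02e-07), in a contrast that called 58.8% of all genes.

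Against the start, Zm00001d052165 was called from 45 to 120 min, with log2 changes from 1.91 (SE 0.388) at 45 min to 2.48 (SE 0.370) at 90 min and edgeR adjusted p-values of at most 0.00327. Zm00001d018161 and Zm00001d018206 were called at 45 min too, when 1.85% of all genes were. The call of Zm00001d052165 at 45 min was lost without nitrogen replicate 2 of 45 min (adjusted p = 0.114), and the one at 120 min without nitrogen replicate 1 of 120 min (adjusted p = 0.0697).

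Zm00001d052164, which overlaps it, held 74 counts in all and was not tested in the main fit. Its group means were at or under 0.397 CPM at the start and in every KCl group, and 1.06 to 1.79 CPM in nitrogen from 20 to 120 min. At 60 min the nitrogen libraries held 2.04, 1.74 and 1.57 CPM and the 3 KCl libraries 0 counts, and the exact lower limit of the ratio was 1.79. At 45 min nitrogen held 1.53, 0.863 and 0.774 CPM against 0 counts in KCl, with a lower limit of 1.29. At the other 7 times the media overlapped. Without the filter on low counts, its edgeR adjusted p was 0.0282 at 60 min and 0.0589 at 45 min. That fit gave smaller errors than the main fit for Zm00001d018161.

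Zm00001d018206, a nitrate reductase model, was low until 30 min and then rose in nitrogen. The start libraries held 1.17, 0.0 and 4.18 CPM, with an SD of 2.16 CPM around a mean of 1.78 CPM. Over the 15 nitrogen libraries from 5 to 30 min the level ran from 0.299 to 4.22 CPM with a median of 2.04 CPM, and over the 15 KCl libraries of those times from 0.867 to 3.27 CPM with a median of 1.46 CPM. Nitrogen libraries held 16.5, 12.1 and 6.97 CPM at 45 min, 37.2, 35.6 and 22.4 CPM at 60 min, and 53.4, 64.5 and 33.6 CPM at 90 min. At 120 min they held 35.4 and 24.8 CPM. The highest mean was that at 90 min, and the library ranges at 60, 90 and 120 min overlap.

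In KCl, Zm00001d018206 held 2.36, 4.70 and 5.35 CPM at 45 min, 0.508, 9.29 and 9.28 CPM at 60 min, and 10.9, 9.51 and 2.22 CPM at 90 min. At 120 min KCl replicate 3 held 31.1 CPM, inside the range of nitrogen, while replicates 1 and 2 held 4.74 and 0.387 CPM. Every nitrogen library lay above every KCl library at 15, 30, 45, 60 and 90 min, and the media overlapped at the other 4 times.

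The nitrogen minus KCl difference of Zm00001d018206 was 2.54 (log2, SE 0.616, edgeR adjusted p = 0.00259) at 60 min and 2.71 (SE 0.516, adjusted p = 7.24e-04) at 90 min. Without KCl replicate 1 of 60 min, the low one, the former was 1.76 (adjusted p = 0.0606). At 45 min it was 1.53 (SE 0.675, edgeR adjusted p = 0.0907). At 120 min it was 1.14 (SE 0.488, edgeR adjusted p = 0.328), and 3.70 (SE 0.617, adjusted p = 2.07e-04) without KCl replicate 3. Averaged over the 9 times it was 0.95 (SE 0.296, edgeR adjusted p = 0.00531), and 1.22 (SE 0.245) without that library.

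Against the start, Zm00001d018206 was called in nitrogen from 45 to 120 min, with log2 changes of 2.75 (SE 0.719, edgeR adjusted p = 0.0312) at 45 min, 4.17 (SE 0.634) at 60 min and 4.84 (SE 0.612, adjusted p = 2.10e-07) at 90 min. The start level rests mostly on replicate 3, with 12 of the 15 start counts. Without it the change at 45 min was 4.43. The call at 45 min was lost without start replicate 1 (adjusted p = 0.0752) or replicate 2 (0.129), and without nitrogen replicate 1 (0.106) or replicate 2 (0.138) of 45 min. The 3 models called at 90 min compare with 0.972% of all genes.

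Zm00001d049995, the other nitrate reductase model with a measurable level, differed between the media in both directions. The start libraries held 2.72, 3.27 and 10.8 CPM. The 27 KCl libraries ran from 1.67 to 10.2 CPM with a median of 5.91 CPM. In nitrogen the 3 libraries held 5.31, 2.65 and 2.71 CPM at 5 min, 0.970, 2.10 and 3.52 CPM at 10 min, and 3.63, 5.01 and 2.41 CPM at 15 min.

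At 20 min Zm00001d049995 had its lowest mean in nitrogen, with 1.15, 2.50 and 1.63 CPM, while KCl held 6.07, 10.2 and 9.65 CPM. Nitrogen libraries then held 3.06, 5.98 and 1.88 CPM at 30 min, 4.98, 2.16 and 4.26 CPM at 45 min, and 10.6, 8.37 and 6.69 CPM at 60 min. They held 17.7, 14.6 and 12.97 CPM at 90 min and 22.05 and 14.9 CPM at 120 min. Every nitrogen library lay below every KCl library at 5 and 20 min and above every one at 90 and 120 min, and the media overlapped at the other 5 times. At 5 min the difference was not called, and how many of all genes separate in this way was not counted.

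The nitrogen minus KCl difference of Zm00001d049995 was -2.41 (log2, SE 0.547, edgeR adjusted p = 8.62e-04) at 20 min, the only time at which a tested model of the set was called lower in nitrogen. At 5 min it was -1.03 (SE 0.428, edgeR adjusted p = 0.0872), at 10 min -1.25 (SE 0.574, adjusted p = 0.297) and at 15 min -0.92 (SE 0.461, adjusted p = 0.217). With the leading axis of the spread within groups as a covariate, the difference at 20 min was -1.32 (edgeR adjusted p = 0.068).

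At 90 min the difference of Zm00001d049995 was 1.62 (SE 0.433, edgeR adjusted p = 0.0168) and at 120 min 1.83 (SE 0.411, adjusted p = 0.0101). The call at 90 min was lost without KCl replicate 2 (adjusted p = 0.0959) or replicate 3 (0.108) or nitrogen replicate 1 (0.0708) of that time, and the difference was 2.59 without KCl replicate 1. That at 120 min was lost without nitrogen replicate 1 (1.47, adjusted p = 0.266) and was 2.28 (SE 0.504) without KCl replicate 3. Averaged over the 9 times the difference was -0.25 (SE 0.167, edgeR adjusted p = 0.197), and 0.65 (adjusted p = 0.0214) with the axis of the spread within groups as a covariate.

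Against the start, Zm00001d049995 was called in nitrogen at 120 min, with a log2 change of 1.73 (SE 0.402, edgeR adjusted p = 0.0114), when all 4 tested models were called and 1.49% of all genes were. The call was lost without start replicate 1 (adjusted p = 0.139) or replicate 2 (0.134), or without nitrogen replicate 1 of 120 min (0.533), and the change was 2.61 without start replicate 3. At 20 min, where the nitrogen mean was lowest, a fall from the start did not pass (log2 -1.76, SE 0.590, edgeR adjusted p = 0.28).

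Zm00001d031769, the third nitrate reductase model, held 21 counts over the 57 libraries. Its highest library held 0.920 CPM, in nitrogen at 30 min. The nitrogen libraries at 90 min held 0.401, 0.811 and 0.350 CPM against 0 counts in KCl, the only time at which its media did not overlap. At this depth no difference of this model was detectable by a test.

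**Figure D3:**
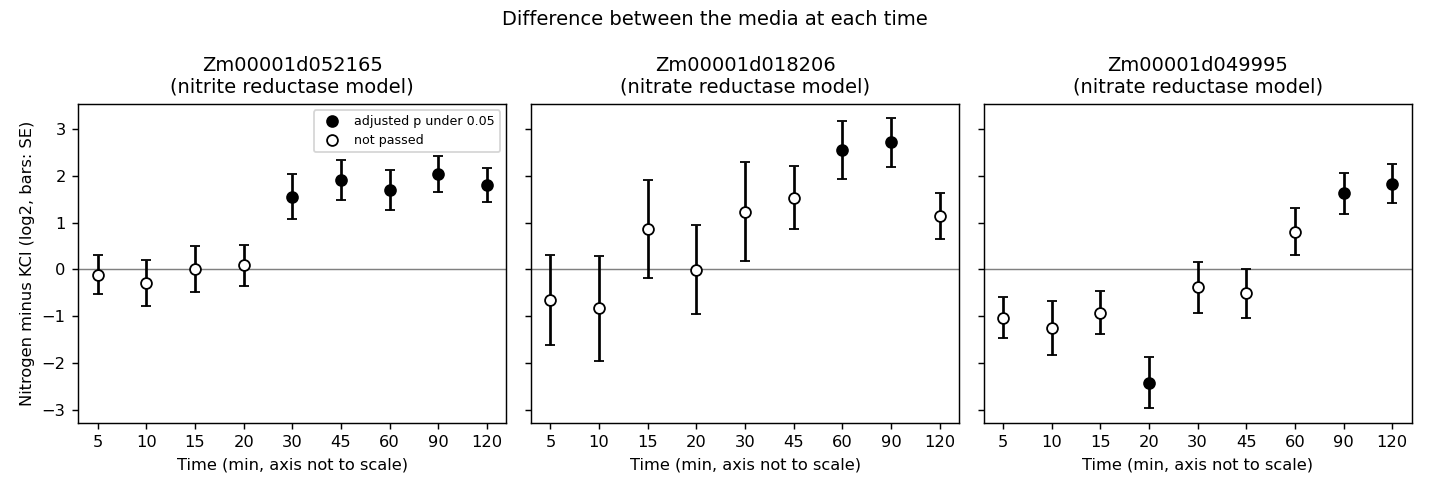
Nitrogen minus KCl difference on the log2 scale at each of the 9 times for 3 tested models, with bars of 1 SE; filled points passed an adjusted p of 0.05 in edgeR and open points did not. Zm00001d052165 is filled from 30 min, Zm00001d018206 at 60 and 90 min, and Zm00001d049995 is filled below 0 at 20 min and above 0 at 90 and 120 min; Zm00001d018161 is left out because KCl groups at 0 counts give its fitted values no firm size.

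The difference between the media was larger from 45 to 120 min than from 5 to 30 min by 1.61 log2 units (SE 0.297, edgeR adjusted p = 8.47e-04) for Zm00001d052165 and by 2.13 (SE 0.332, adjusted p = 5.40e-05) for Zm00001d049995, in a contrast that called 1.41% of all genes. For Zm00001d018206 it was larger by 1.86 (SE 0.579), which did not pass (edgeR adjusted p = 0.0948). Without KCl 120 min replicate 3 the same value was 2.51 (SE 0.488, adjusted p = 0.00169). For Zm00001d018161 the KCl groups at 0 counts left this contrast without an error in edgeR. In limma on log2(CPM + 1) it was 3.87 (SE 0.283, adjusted p = 3.90e-13).

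Within nitrogen the 4 tested models reached their own highest mean at different times. At 30 min Zm00001d052165 stood at 40.2% of its highest nitrogen mean, Zm00001d049995 at 19.7%, Zm00001d018161 at 15.9% and Zm00001d018206 at 6.56%. At 45 min they stood at 67.9%, 20.5%, 46.5% and 23.4% in the same order. The highest mean fell at 60 min for Zm00001d018161, at 90 min for Zm00001d052165 and Zm00001d018206 and at 120 min for Zm00001d049995. These percentages start from unequal baselines. In the main edgeR fit and in DESeq2, steps between neighbouring times after 45 min did not pass for any of the 4 models. Other fits did call such steps. Without the filter, edgeR called those of Zm00001d018161 and Zm00001d018206 from 45 to 60 min and that of Zm00001d018206 from 60 to 90 min. With the axis of the spread within groups as a covariate, it called that of Zm00001d018161 from 45 to 60 min (1.14, adjusted p = 0.0207). From 90 to 120 min, limma on log2(CPM + 1), which holds the library of 8560 counts with the weight of any other, called a fall of Zm00001d052165 (-1.56, adjusted p = 0.027) and Zm00001d018206 (-2.35, adjusted p = 0.0211). At an unadjusted p under 0.05 in the main fit the steps from 45 to 60 min of Zm00001d018161 (3.40e-05), Zm00001d018206 (0.00427) and Zm00001d049995 (0.016) passed, and from 60 to 90 min that of Zm00001d049995 (0.0341).

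**Figure D4:**
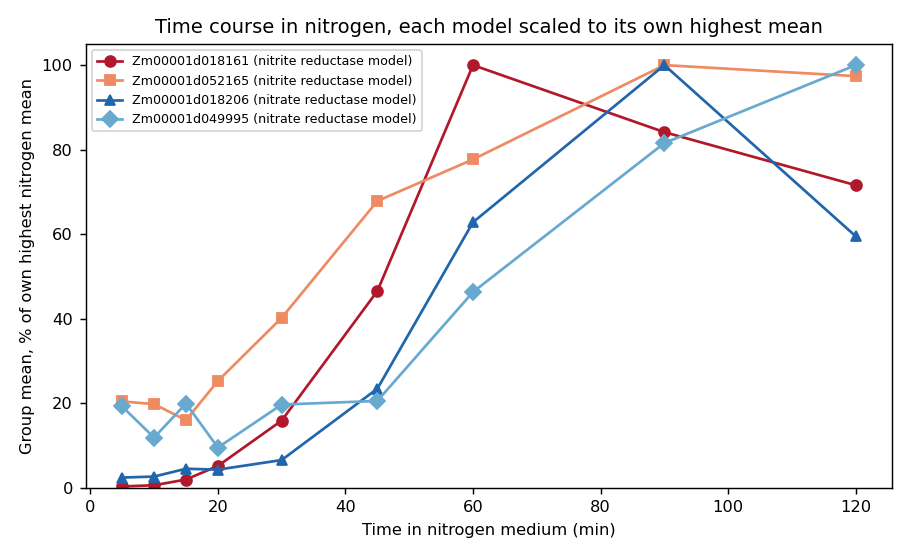
Mean level in nitrogen at each time as a percentage of the same model's highest nitrogen mean, against time in minutes on a linear axis, for the 4 tested models. At 45 min the nitrite reductase models stand at 46.5% and 67.9% and the nitrate reductase models at 23.4% and 20.5%.

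Ordered from high to low over the 19 groups, neighbouring groups mostly overlapped in their libraries. For Zm00001d018161, 3 of the 18 neighbouring pairs did not overlap. One pair each did not overlap for Zm00001d049995 and Zm00001d052164, and the other models had 0 such pairs. Groups were ordered by their own means, and the same count over all genes was not made, so these counts are a description. The 6 highest groups of Zm00001d018161 were nitrogen at 60, 90, 120, 45, 30 and 20 min, in that order.

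Within each enzyme class the balance between models moved. Each transcript is read near its 3′ end, and shares were computed per 1000 exon bases. Zm00001d018161 made up 10.4% of the sum of Zm00001d018161 and Zm00001d052165 at the start and 10.5% in nitrogen at 5 min. In nitrogen the share then went from 18.7% at 10 min through 48.2% and 60.7% at 15 and 20 min to 74.6% at 30 min. It reached 90.5% at 60 min, with single libraries between 89.0% and 92.7%, and was 84.1% at 120 min. In KCl it ranged from 0.0% to 31.8% over the 9 groups, the highest being at 120 min, where it was 19.8% without replicate 3. From 10 min on every nitrogen library had a larger share than every KCl library of its time. At 10 min the KCl group held 0 counts of Zm00001d018161 among 23 of the pair, against 10 among 53 in nitrogen. The KCl libraries of 10 min were shallower, with 1057488 to 1771467 counts against 3222396 to 3635153 in nitrogen. No difference in the level of Zm00001d018161 was detectable at that time. Reads of Zm00001d052165 on shared exons are missing, so the share is a relative measure across groups and not the ratio of the transcripts.

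Zm00001d018206 made up 24.7% of the sum of Zm00001d018206 and Zm00001d049995 at the start. In nitrogen its share was 26.8% after 5 min and 59.3% after 20 min. It lay between 76.7% and 80.0% from 45 to 90 min and was 63.4% at the last harvest. In KCl it went from 16.2% at 15 min to 44.3% and 62.7% at 45 and 90 min, and was 75.4% at the last harvest. The 3 libraries of that last group ran from 9.67% to 82.1%, and without replicate 3 its share was 38.6%.

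**Figure D5:**
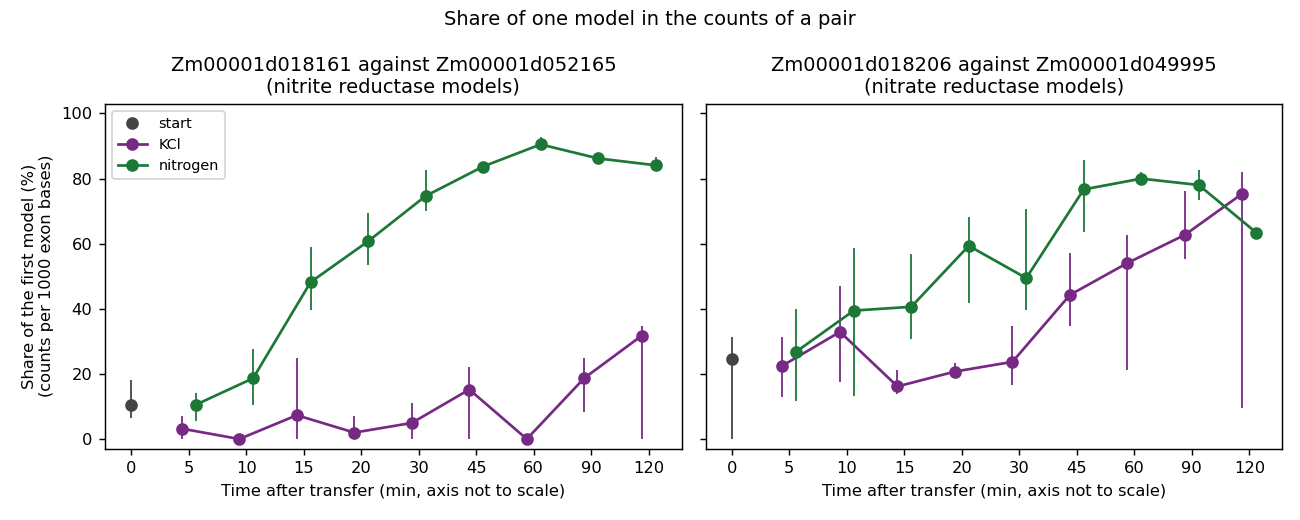
Share of Zm00001d018161 in the sum of 2 nitrite reductase models (left) and of Zm00001d018206 in the sum of 2 nitrate reductase models (right), in percent of counts per 1000 exon bases, against time; points are pooled groups and vertical lines run from the lowest to the highest library. From 10 min on the nitrite reductase share of every nitrogen library lies above that of every KCl library of its time. At 10 min the KCl group held 0 counts of Zm00001d018161 among only 23 counts of the pair. The nitrate reductase share in KCl is 62.7% at 90 min, and its 75.4% at 120 min is 38.6% without KCl replicate 3.

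The nitrite reductase models together made up 35.6% of the sum of the 4 tested models at the start, per 1000 exon bases, and 29.1% to 37.8% in the KCl groups, the lowest being 120 min, with 33.8% there without replicate 3. In nitrogen they made up 48.1% after 5 min, 76.7% and 83.6% after 20 and 45 min, and 68.6% and 71.7% after 90 and 120 min. From 20 min to 45 min the lowest nitrogen library stood at 64.01% and the highest KCl library at 43.5%. Reads of Zm00001d052165 on shared exons are missing here too, and Zm00001d052164 is left out. These shares are therefore relative measures across groups and not proportions of the transcripts.

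In KCl alone, Zm00001d018206 was the only tested model called against the start at a single time. A joint edgeR test of all KCl times against the start passed for Zm00001d018206 (adjusted p = 0.00187) and Zm00001d018161 (0.0228). It did not pass for Zm00001d052165 (0.77) or Zm00001d049995 (0.701). The joint test was not rerun without KCl 120 min replicate 3, and its calls over all genes were not counted. The 15 KCl libraries of Zm00001d018206 from 5 to 30 min had a mean of 1.85 CPM ± 0.840 (SD). Its 12 libraries from 45 to 120 min had a mean of 7.52 CPM ± 8.26 (SD), or 5.38 CPM ± 3.83 without replicate 3 of 120 min. The late minus early difference within KCl was 1.91 (log2, SE 0.422, edgeR adjusted p = 0.00233), in a contrast that called 6.17% of all genes, and 1.26 (SE 0.387, adjusted p = 0.0496) without that library. The call was lost in limma on log2(CPM + 1) (1.12, adjusted p = 0.325) and in limma on the authors' normalized table (0.99, adjusted p = 0.0668). The normalized table also lacks KCl 120 min replicate 3, so it is not a separate check from the fit without that library. Against the start, KCl at 120 min was higher by 2.96 (SE 0.692, edgeR adjusted p = 0.0028), when 11.2% of all genes were called. Without KCl replicate 3 that difference was 0.40 (SE 0.909, adjusted p = 0.868), and without start replicate 3 it was 4.64 (adjusted p = 0.00119). For Zm00001d052165 and Zm00001d049995 the late minus early difference within KCl was 0.26 (SE 0.238) and -0.35 (SE 0.238), with edgeR adjusted p-values of 0.637 and 0.474. Zm00001d018161 at 120 min in KCl was higher than the start by 2.58 (SE 0.909, edgeR adjusted p = 0.0563), and by 0.51 (SE 1.38) without replicate 3.

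KCl 120 min replicate 3 differed from its group beyond these genes. A set of 32 other genes, chosen after their values were seen, was at least 4-fold higher in nitrogen than in KCl at both 60 and 90 min. Each also had a nitrogen mean of at least 5 CPM and every nitrogen library above every KCl library at both times. Of the 32, 26 were highest in replicate 3 of the KCl 120 min libraries, 4 in replicate 1 and 2 in replicate 2. The same count over all genes was not made. The median level of the 32 genes was 7.23 CPM in replicate 3, against 1.58 and 1.94 CPM in replicates 1 and 2 and 20.8 CPM in the mean of nitrogen at 120 min. Zm00001d049995 held 7.23 CPM in replicate 3, which exceeded 17 of the other 26 KCl libraries. The part of this library's makeup in the results was not tested beyond the values without it.

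Over group means of log2(CPM + 1), the 4 tested models resembled each other more in nitrogen than in KCl. Over the 9 nitrogen groups, Pearson's r was 0.95 between Zm00001d018161 and Zm00001d052165, 0.94 between Zm00001d018161 and Zm00001d018206, and 0.90 between Zm00001d018206 and Zm00001d049995. Over the 9 KCl groups the same pairs gave 0.10, 0.71 and -0.64, and without KCl 120 min replicate 3 they gave -0.05, 0.56 and -0.43. These are descriptions over groups that share libraries and depth between the genes, and the low counts of Zm00001d018161 in KCl leave its KCl values weak.

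The genes whose 19 group means were most like those of Zm00001d018161 were Zm00001d048020, with r = 0.99, and Zm00001d034345, with r = 0.99. Zm00001d048020 held 120.5 CPM ± 54.8 (SD, n = 3) in nitrogen at 60 min and 1.099 CPM ± 0.370 (SD, n = 3) in KCl. Zm00001d034345 held 536.9 CPM ± 79.7 and 25.2 CPM ± 1.61 in the same groups (SD, n = 3 each). By Spearman's rho, 0.87 and 0.75, they ranked 17 and 279 among the genes tested. Most like Zm00001d018206 were Zm00001d016826, with r = 0.95, and Zm00001d038291, with r = 0.94. Zm00001d016826 held 233.0 CPM ± 14.7 in nitrogen at 90 min and 173.2 CPM ± 11.3 in KCl, and Zm00001d038291 held 14.6 CPM ± 2.20 and 0.517 CPM ± 0.529 (SD, n = 3 each). An r of 0.9 or more to Zm00001d018161 was reached by 32 genes and to Zm00001d018206 by 7.

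The authors' deposited network table gives a score, called a weight, for pairs of 203 regulators and 2732 targets. The 4 tested models are targets in it and none of the 6 is a regulator. In the authors' deposited table the regulator with the highest weight was Zm00001d053566 for Zm00001d018161 (0.937), for Zm00001d052165 (0.486) and for Zm00001d018206 (0.240), and Zm00001d035605 for Zm00001d049995 (0.134). The median over all targets of their highest weight in the authors' deposited table was 0.731, which lies below the value of Zm00001d018161 and above those of the other models. By highest weight, Zm00001d018161 ranked 1083 and Zm00001d049995 ranked 2666 among the targets of the authors' deposited table. The weights may come from these same libraries, so they are not separate evidence.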

How the data were processed

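RNA was made into 3′ mRNA libraries with molecular identifiers and sequenced in single reads, per the labels' protocols. The submitters' processing notes name STAR 2.7.6a, fastp 0.21.0, UMI-tools 1.1.1 and, for counting, featureCounts 2.0.1, while the header of the count table names featureCounts 1.5.1 and AGPv4 annotation release 37. The authors deposited whole-number counts per gene, and per the file header no option for strand, for reads on several genes or for multiply mapped reads was set. Reads that paralogs share in full may therefore be missing, and reads from opposite strands are not told apart. The deposited normalized table holds 18370 genes in 55 libraries as a signal with the same total, 2522105, in each library, and was used as an alternative only. The making of that table, and of the deposited network score, was not given in any source at hand. Left unused were 2 columns of the count table whose names fit none of the labelled samples.

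Counts were tested with edgeR 4.0.16 in R 4.3.3 (TMM scaling, filterByExpr on the 19 groups, quasi-likelihood F test on 19 group means with 38 residual degrees of freedom, Benjamini-Hochberg over 18412 genes, two-sided, threshold 0.05). Each SE is the absolute log2 difference divided by the square root of F. CPM values are counts per 1000000 after TMM scaling. The library of 8560 counts entered the fit but not the means. It also entered limma on log2(CPM + 1), with the weight of any other library. Between replicates of the other libraries, the chi-square per degree of freedom was 1.46 to 9.17, above sampling noise. Intervals on count ratios are exact and cover counting error only.

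Alternatives were RLE size factors, library totals, no filter, a mean of at least 1 CPM, DESeq2 1.42.0, limma 3.58.1 on log2(CPM + 1), a replicate block, no library under 100000 counts, the normalized table, the leading axis of the spread within groups as a covariate, and 57 fits that leave out 1 library each. Shares and correlations without KCl 120 min replicate 3 were added after seeing the data. The fits were tested on simulated data. The members, gene lists and tests were chosen with earlier results of these data known. The named genes are the 6 models, the 2 genes most like the most abundant model of each class by Pearson's r, and the leading network regulators. The reference names belong to a different assembly and matched 0 of the 6 identifiers, so the enzyme classes are those given with the list of models, pathway lists and marker genes had no members, and no sequences are printed.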

Additional observations from a re-analysis of the deposited data

Results flagged for a closer look

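The difference between nitrogen and KCl changed between the early and the late times for 2 models by a test of the difference itself. For Zm00001d052165 the late difference exceeded the early one by 1.61 log2 units (SE 0.297, edgeR adjusted p = 8.47e-04), and over the fits that leave out 1 library it ran from 1.496 to 1.91. For Zm00001d049995 the late difference exceeded the early one by 2.13 log2 units (SE 0.332, edgeR adjusted p = 5.40e-05), and over the same fits it ran from 2.01 to 2.39. In Zm00001d049995 the early differences were negative and the differences from 60 min on positive.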

How the results depend on the processing

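Of 906 values recomputed with 1 library left out, 871 stayed the same, and of 624 recomputed under another setting, 555 did. For a tested difference, the same means that it kept its direction and side of the threshold. Numbers of times or genes called and shares have no such threshold, and were taken as the same where they moved little. The cause of the changes below was not tested unless stated. The average difference of Zm00001d049995 turned from -0.25 to 0.65 with the axis of the spread within groups as a covariate. The late minus early difference of Zm00001d018161, which has no error in edgeR, was 2.99 in DESeq2, 3.87 in limma and 4.11 in the authors' normalized table, and passed in each. That of Zm00001d018206 passed at 1.88 without a filter, 1.83 with the axis and 2.61 in the normalized table, which lacks KCl 120 min replicate 3. It ran from 1.67 to 2.51 with 1 library left out, and passed, at 2.51, without that same library. In limma on log2(CPM + 1) the late minus early differences of Zm00001d052165 (1.22) and Zm00001d049995 (1.57) did not pass. The same fit called 0 times for the media difference of Zm00001d052165, Zm00001d018206 and Zm00001d049995, where edgeR called 5, 2 and 3. It holds the library of 8560 counts with the weight of any other. At 120 min it gave a media difference of 0.49 for Zm00001d052165 and 0.32 for Zm00001d049995, against 1.81 and 1.83 in edgeR. Limma also called 0 times against the start for Zm00001d052165 and Zm00001d049995 in nitrogen and for Zm00001d018206 in KCl.

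The axis gave 2 called times for the media difference of Zm00001d052165 and 3 in nitrogen against the start for Zm00001d049995. Without a filter Zm00001d018206 was called at 4 times between the media and 3 in KCl against the start, and Zm00001d049995 at 3 in nitrogen against the start. DESeq2 called 2 times for Zm00001d018206 and 0 for Zm00001d049995 in nitrogen against the start, and 1 for the media difference of Zm00001d049995. For Zm00001d018206 at 60 min DESeq2 gave no adjusted p, so that time is missing from its count. The other 9 alternatives called it. In KCl against the start, Zm00001d018161 was called at 1 time without a filter, in DESeq2 and with the axis. With 1 start library left out, times called against the start ran from 1 to 2 for Zm00001d018206 in KCl (2 without replicate 3), from 0 to 2 for Zm00001d049995 in nitrogen and from 0 to 1 for Zm00001d049995 in KCl.

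Over all genes, the average called 10830 in edgeR, 5902 in limma and 4187 with the axis. Late minus early called 260 in edgeR, 634 without a filter, 123 in DESeq2, 23 in limma and 399 with the axis, and 165 to 333 with 1 library left out. RLE and library totals turned the direction only of Zm00001d052165 at 15 min and Zm00001d018206 at 20 min, both within 0.05 of 0. Same-numbered libraries did not deviate together (r from -0.22 to 0.26 over 26 pairs, 5 of them above 0.1). With the replicate block, late minus early called 247 genes, the difference of Zm00001d052165 was 1.63, and among the values recomputed the step of Zm00001d018161 from 30 to 45 min lost its call.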
